A study of Mus musculus with 12 samples.

Results

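*Serpinf1* and 7 other genes of the serine protease inhibitor (serpin) superfamily were followed in ARG1+ and ARG1- microglia of the mouse basal forebrain and striatum. The members, *Serpinf1*, *Serpine2*, *Serpinb6a*, *Serpinb6b*, *Serpinb8*, *Serpinb9*, *Serping1* and *Serpinh1*, were selected by name with their values in the comparison of ARG1+ with ARG1- microglia already known, so those values are given as a description and without a p-value. They are 8 of the 67 serpin genes analysed here among the 55487 genes of the count table, and 7 of them were among the 16908 genes that passed the filter on low counts; *Serpinb8* did not pass it.

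All mice were of the YARG strain, in which a sequence for yellow fluorescent protein (YFP) follows the stop codon of the endogenous *Arg1* gene, so that YFP marks cells that use *Arg1*, the gene of an enzyme that breaks down arginine. At postnatal day 13, tissue of several pups of the same sex was pooled for each biological replicate, and CX3CR1+ CD206- cells were sorted by YFP into ARG1+ and ARG1- microglia. By the study's methods both populations were sorted from such pools, so ARG1+ and ARG1- libraries may share pups; the labels do not say which, and the libraries were fitted as independent. The 12 RNA-seq libraries formed 4 groups of 3, ARG1- females, ARG1- males, ARG1+ females and ARG1+ males, with no treatment named for any of them, and each library was counted as 1 replicate. Libraries held 28356659 to 60625170 counts. The limit of detection was taken as 3 counts, which equalled 0.0511 to 0.102 CPM (counts per 1000000, relative to library sizes normalized by the TMM method). Microglial markers were high in every library, with a summed level of 48031 to 63992 CPM in ARG1- and 37935 to 48857 CPM in ARG1+ libraries. *Arg1* transcripts themselves were counted in 2 ARG1+ libraries, with 54 counts in all, and were at 0 in every ARG1- library, so the counts do not check the sort well.

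Serpins share a fold with an exposed reactive centre loop that acts as bait for a protease. Cutting of the loop snaps it into the body of the inhibitor, which deforms the protease and holds it in a covalent complex that receptors such as LRP1 clear from the cell surface. Some members have lost this inhibitory function, among them *Serpinf1*, which encodes the secreted pigment epithelium-derived factor, known for neurotrophic and anti-angiogenic activity, and *Serpinh1*, which encodes a collagen chaperone of the endoplasmic reticulum. *Serpine2* encodes protease nexin, a secreted inhibitor of thrombin, plasmin and urokinase in the brain, and *Serping1* encodes the inhibitor of the complement proteases C1r and C1s. The *Serpinb* genes encode inhibitors that stay inside the cell, where *Serpinb6a* acts on cathepsin G, *Serpinb8* on furin and *Serpinb9* on granzyme B.

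The start regions of *Serpinf1* and *Serpine2*, the members with the most counts, are shown because they differ in base composition. Each runs from 250 bases before to 50 bases after the start of the RefSeq transcript (GRCm38.p6), is written 5′ to 3′ on the strand of the gene, and carries CG dinucleotides in capitals. The *Serpinf1* region lies on the minus strand at chr11:75422574-75422873 and the *Serpine2* region on the minus strand at chr1:79858616-79858915.
Serpinf1: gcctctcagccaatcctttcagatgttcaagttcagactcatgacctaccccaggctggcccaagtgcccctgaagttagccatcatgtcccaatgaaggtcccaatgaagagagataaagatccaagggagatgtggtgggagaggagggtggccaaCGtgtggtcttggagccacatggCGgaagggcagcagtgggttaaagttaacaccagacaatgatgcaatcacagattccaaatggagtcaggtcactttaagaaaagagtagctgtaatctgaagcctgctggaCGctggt
Serpine2: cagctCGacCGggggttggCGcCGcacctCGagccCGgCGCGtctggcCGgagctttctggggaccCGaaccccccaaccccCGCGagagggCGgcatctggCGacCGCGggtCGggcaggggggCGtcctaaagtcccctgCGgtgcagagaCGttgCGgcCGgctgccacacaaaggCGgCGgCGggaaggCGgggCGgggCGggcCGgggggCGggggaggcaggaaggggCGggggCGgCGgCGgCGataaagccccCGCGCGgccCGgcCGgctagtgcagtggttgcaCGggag

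The *Serpinf1* sequence had 3 CG dinucleotides and a GC content of 50.7%, and the *Serpine2* sequence had 41 and 77.7%. The motif CG reads the same on both strands. Over 32544 RefSeq start regions of this length, the median was 7 CG dinucleotides and a GC content of 53%; 3.49% of the regions had at least as many CG dinucleotides as *Serpine2* and 76.9% at least as many as *Serpinf1*. A RefSeq start region was found for 7 of the 8 members, with 16 CG dinucleotides for *Serpinh1*, 25 and 5 for the separate starts of *Serpinb6a*, and 4 or 5 for *Serpinb6b*, *Serpinb8* and *Serpinb9*. *Serping1* was not matched.

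The level of the members spanned several orders of magnitude, and *Serpine2* led in both populations. Divided by the length of the gene model, its level was 149 ± 13 CPM per kilobase in ARG1- and 164 ± 15 CPM per kilobase in ARG1+ microglia (mean ± SD, n = 6 libraries, as for all values per population). *Serpinf1* came next at 62.7 ± 15.1 CPM per kilobase in ARG1- and 27.3 ± 3.57 in ARG1+ microglia, followed by *Serpinb6a* at 5.35 ± 2.07 and 5.60 ± 0.511 and *Serpinb9* at 2.24 ± 1.60 and 2.95 ± 0.626 CPM per kilobase. *Serpinb6b* stood at 0.619 ± 0.896 CPM per kilobase in ARG1- and 1.39 ± 0.534 in ARG1+ microglia. *Serpinh1*, *Serping1* and *Serpinb8* had mean levels of at most 0.201 CPM per kilobase. In ARG1+ microglia the libraries of neighbours in this order did not overlap from *Serpine2* down to *Serping1*, whereas *Serping1*, *Serpinh1* and *Serpinb8* overlapped. In ARG1- microglia neighbours were separated only between *Serpine2*, *Serpinf1* and *Serpinb6a*, and from *Serpinb6a* downwards each overlapped the next. The order was the same for CPM without division by length.

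**Figure D1:**
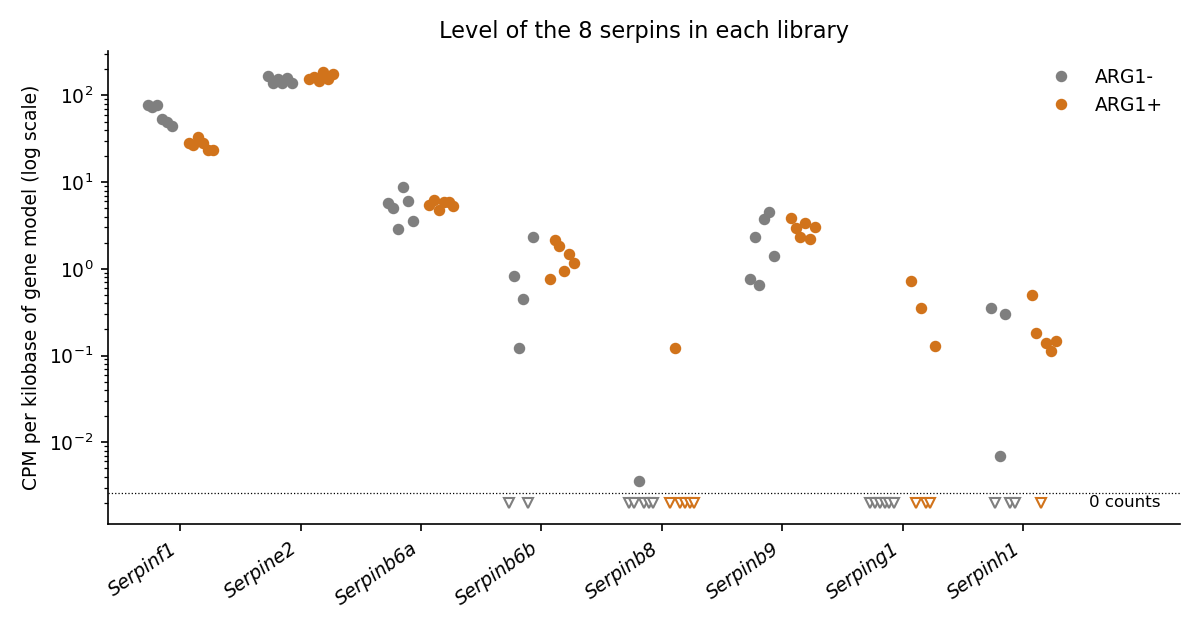
Level of each of the 8 serpins (horizontal axis) in CPM per kilobase of gene model (vertical axis, log scale) in ARG1- (grey) and ARG1+ (orange) libraries; each point is a library, and open triangles at the bottom mark libraries with 0 counts. *Serpine2* lies highest, *Serpinf1* is lower in all 6 ARG1+ libraries, and *Serping1* and *Serpinb8* are at 0 in most libraries.

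*Serpine2* dominated the serpin reads. It held 86.7% ± 2.0 of all counts on the 67 serpin genes in ARG1- and 92.2% ± 0.933 in ARG1+ libraries, and ranked 76 and 60 among all 55487 genes by mean CPM. *Serpinf1* held 10.3% ± 2.06 and 4.40% ± 0.819, with ranks of 1181 and 3022. The 59 serpins that were no members held 0.242% ± 0.235 and 0.313% ± 0.112 together. The summed level of these 67 serpins was 1428 ± 124 CPM in ARG1- and 1474 ± 122 CPM in ARG1+ microglia, with overlapping ranges of 1284 to 1627 and 1331 to 1647 CPM.

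*Serpinf1* was lower in ARG1+ microglia of both sexes. It lies at chr11:75409769-75422701 on the minus strand (GRCm38, gene positions from GENCODE M21). ARG1- female libraries had 185, 171 and 182 CPM and ARG1- male libraries 127, 117 and 104 CPM. ARG1+ female libraries had 66.2, 63.0 and 78.2 CPM and ARG1+ male libraries 67.1, 55.3 and 56.0 CPM. The highest ARG1+ library thus lay below the lowest ARG1- library, and within ARG1- microglia all females lay above all males. The population means were 148 ± 35.7 CPM in ARG1- and 64.3 ± 8.43 CPM in ARG1+ microglia, a level 2.30-fold higher in ARG1- microglia, with a log2 fold change of -1.17 (SE 0.11). In bulk libraries, a lower level per cell and fewer expressing cells cannot be told apart. Leaving out each library in turn gave log2 fold changes from -1.22 to -1.10.

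*Serpine2*, at chr1:79794197-79861180 on the minus strand, was the most abundant member. ARG1- libraries ranged from 1143 to 1402 CPM with a median of 1216 CPM, and ARG1+ libraries from 1210 to 1530 CPM with a median of 1323 CPM. The populations overlapped, and the log2 fold change was 0.13 (SE 0.08). The ratio of *Serpine2* to *Serpinf1* within a library, in CPM, was 6.70 to 11.2 in ARG1- and 15.5 to 26.5 in ARG1+ libraries, without overlap. By group, this ratio was 7.11 ± 0.439 in ARG1- females, 10.4 ± 1.21 in ARG1- males, 18.8 ± 3.04 in ARG1+ females and 24.3 ± 2.01 in ARG1+ males (SD, n = 3).

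Of the 7 members tested, *Serpinf1* alone passed an adjusted p of 0.05 in the ARG1 contrast, in the direction of lower in ARG1+ microglia. Over all genes tested, 2682 passed (15.9%), of which 1593 were lower (9.42%) and 1089 higher in ARG1+ microglia (6.44%). The 6 libraries of one population lay wholly beyond the 6 of the other for *Serpinf1* and for no further member tested, and for 10% of all genes tested. As the members were chosen on this contrast, nothing is read from these counts. The median log2 fold change was 0.55 over the 7 members tested and 0.06 over all genes tested, and nothing is read from it either. It is the value of *Serpinb9*, whose SE was 0.43. The 7 include *Serping1*, which passed the filter through ARG1+ libraries alone. *Serpinh1* had more than 3 counts in 2 ARG1- and 5 ARG1+ libraries. As the filter asked for 3 libraries, it could not have passed through ARG1- libraries either.

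*Serpinb6a* (chr13:33917918-34002794, minus strand) and *Serpinb9* (chr13:33003250-33017957, plus strand) were counted in every library and covered a wider range of levels in ARG1- than in ARG1+ libraries. *Serpinb6a* ranged from 15.7 to 47.1 CPM in ARG1- libraries, with a median of 29.4 CPM, and from 26.0 to 33.3 CPM in ARG1+ libraries, with a median of 30.9 CPM. The ARG1+ values all lay inside the ARG1- range, and the log2 fold change was 0.08 (SE 0.23). Its gene model overlaps *Nqo2*, *1110046J04Rik* and *Ripk1* on the opposite strand, and 22% of the windows of 75 bases in its exons also lie in exons of these genes, so reads of a kit that does not mark strand cannot be told apart there; none of the other 7 members shared such a window. *Nqo2*, which encodes a quinone reductase, stood at 17.2 ± 4.76 CPM in ARG1- and 18.8 ± 7.84 CPM in ARG1+ microglia. *Serpinb9* ranged from 2.28 to 15.7 CPM in ARG1- libraries, with a median of 6.53 CPM, and from 7.63 to 13.4 CPM in ARG1+ libraries, with a median of 10.5 CPM. These ranges overlapped too, with a log2 fold change of 0.55 (SE 0.43).

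**Figure D2:**
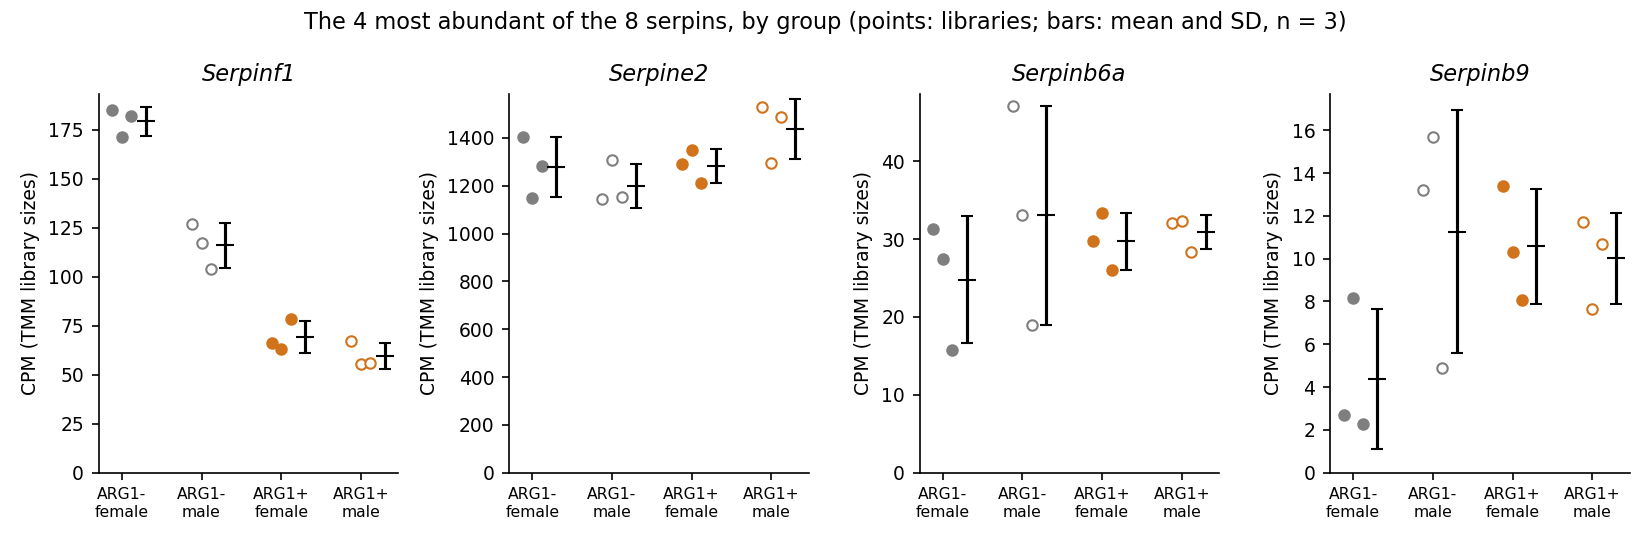
CPM (vertical axes, from 0) of the 4 most abundant of the 8 serpins in ARG1- (grey) and ARG1+ (orange) libraries of females (filled points) and males (open points); bars give the mean and SD of 3 libraries. *Serpinf1* descends from 179 CPM in ARG1- females to 116 in ARG1- males and to 69.1 and 59.5 in ARG1+ females and males, whereas the other genes overlap between the populations.

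The remaining members were counted in some libraries and absent from others of the same group. *Serpinb6b* (chr13:32965209-32979067, plus strand), a close relative of *Serpinb6a*, had 0, 74 and 16 counts in ARG1- females, 38, 0 and 178 in ARG1- males, 54, 143 and 144 in ARG1+ females, and 93, 161 and 90 in ARG1+ males. It was thus found in 4 of 6 ARG1- and in 6 of 6 ARG1+ libraries, while the highest library was an ARG1- male, and its mean level was 1.40 ± 2.03 and 3.14 ± 1.21 CPM (log2 fold change 1.35, SE 1.17; 2.39 without ARG1- male library 14 and 0.97 to 1.95 without any other). *Serpinh1* (chr7:99345376-99353239, minus strand) had 29, 0 and 1 counts in ARG1- females, 28, 0 and 0 in ARG1- males, 38, 13 and 0 in ARG1+ females, and 15, 13 and 12 in ARG1+ males. The populations overlapped, at 0.271 ± 0.416 and 0.436 ± 0.406 CPM (log2 fold change 0.64, SE 1.45), and the log2 fold change was 2.07 without ARG1- female library 1, 2.35 without ARG1- male library 5, 0.05 without ARG1+ female library 7 and 0.35 to 0.89 without any other library.

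*Serping1* (chr2:84765387-84775444, minus strand) was found only in ARG1+ libraries, and in 3 of these 6, so that it passed the filter through ARG1+ libraries alone. Its counts were 53, 0 and 29 in ARG1+ females and 0, 0 and 10 in ARG1+ males, and 0 in all ARG1- libraries. Its mean of 0.467 ± 0.676 CPM was at least 5.78-fold higher than the limit of 3 counts per library in ARG1- microglia, which averaged 0.0808 CPM, and at least 2.78-fold higher without ARG1+ female library 7, at 0.225 ± 0.360 CPM. *Serpinb8* (chr1:107590006-107610484, plus strand) had 17 counts in ARG1+ female library 8, 1 count in ARG1- female library 13 and 0 elsewhere. The ratio of these counts per normalized library size was 17.9, with an exact 95% binomial interval of 2.81 to 750 that covers counting error only, and 1 library carried all of the ARG1+ counts.

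Such gaps were usual for genes of this level. Of the 3321 genes tested with a mean of 0.2 to 1 CPM, 69.0% had 0 counts in at least 1 library and 10 or more in another, against 35.7% of the 2816 genes between 1 and 5 CPM and 2.45% of the 6526 genes between 5 and 50 CPM. The coefficient of variation within a population was 8.70% and 9.12% for *Serpine2* in ARG1- and ARG1+ microglia and 24.2% and 13.1% for *Serpinf1*. It was 38.7% and 9.13% for *Serpinb6a* and 71.5% and 21.2% for *Serpinb9*, beside medians of 35.7% and 26.1% over all genes tested.

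Females and males were then compared within each population, a contrast that the choice of members did not use. In ARG1- microglia, *Serpinf1* averaged 179 ± 7.19 CPM in females and 116 ± 11.4 CPM in males (SD, n = 3), without overlap and with a log2 fold change of 0.63, females minus males (SE 0.14). It did not pass edgeR's quasi-likelihood test (adjusted p = 0.208), but it passed DESeq2's Wald test, with a log2 fold change of 0.61 (adjusted p = 0.00103); over the alternatives fitted for this contrast (DESeq2 size factors and Wald test, at least 10 counts in every library, and single libraries left out) the adjusted p lay between 0.00103 and 0.421. *Serpinb9* went the other way, with 4.38 ± 3.28 CPM in ARG1- females and 11.3 ± 5.65 CPM in ARG1- males, ranges that overlapped (log2 fold change -1.36, SE 0.55, edgeR adjusted p = 0.465). By edgeR, 0 of the 7 members passed in ARG1- microglia, where 16 genes passed in all (0.0946%), and 2 members, *Serpinf1* and *Serpinb9*, had an unadjusted p under 0.05. Of all 16908 genes tested, 1692 had such an unadjusted p, so nothing is read from these 2. DESeq2, which fitted 29671 genes, called 1 member there, *Serpinf1*, and 397 genes in all.

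In ARG1+ microglia, *Serpinf1* averaged 69.1 ± 7.99 CPM in females and 59.5 ± 6.63 CPM in males, which overlapped (log2 fold change 0.22, SE 0.14, edgeR adjusted p = 1.0). *Serpinb9* stood at 10.6 ± 2.69 and 9.99 ± 2.11 CPM. By edgeR and by DESeq2, 0 members passed in this population, at an adjusted or an unadjusted p, beside 6 genes in all by edgeR (0.0355%) and 39 by DESeq2. An unadjusted p under 0.05 was found for 528 genes by edgeR and for 845 by DESeq2.

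The ARG1 effect on *Serpinf1* was -1.38 (SE 0.14) in females and -0.97 (SE 0.14) in males on the log2 scale. The test of the difference between the sexes gave -0.41 (SE 0.19, edgeR adjusted p = 0.548; 0.424 to 0.761 over the same alternatives). *Serpine2* had effects of 0.01 and 0.26 (SE 0.10 each), with a difference of -0.25 (SE 0.15, edgeR adjusted p = 0.645), and *Serpinb9* had effects of 1.27 (SE 0.55) and -0.17 (SE 0.54), with a difference of 1.45 (SE 0.77, edgeR adjusted p = 0.599). In this test of the difference, 0 members passed by either tool, at an adjusted or an unadjusted p, and edgeR called 0 of all genes tested (0%), with 1576 at an unadjusted p under 0.05, whereas DESeq2 called 278.

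**Figure D3:**
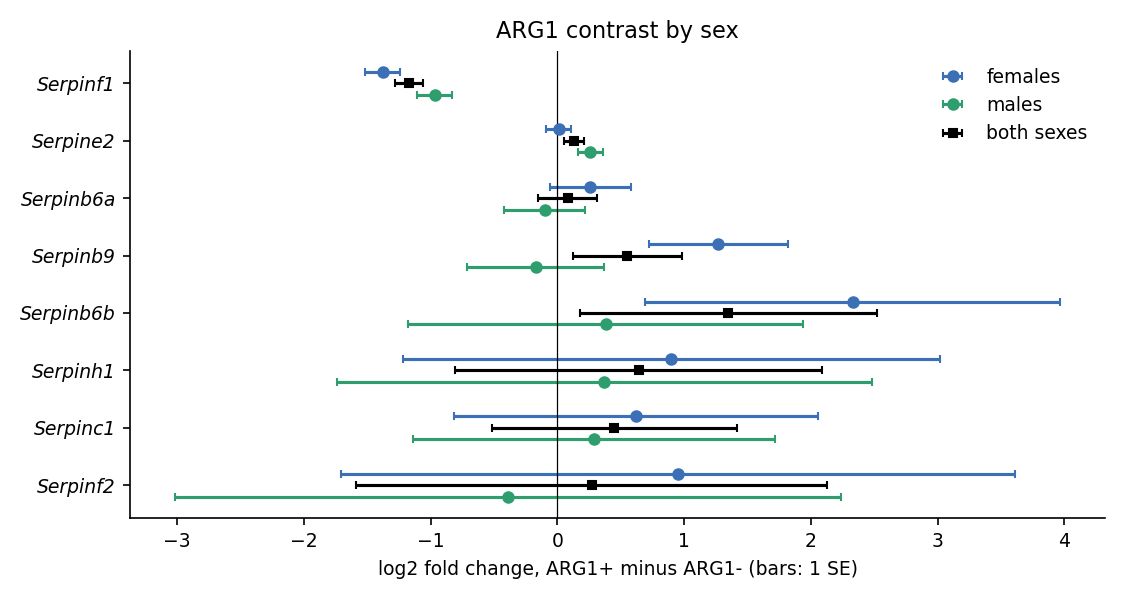
Log2 fold change between ARG1+ and ARG1- microglia (horizontal axis; right of 0 is higher in ARG1+) for 6 members and 2 other serpins, fitted in females (blue), males (green) and both sexes (black); bars give 1 SE. *Serpinf1* lies at -1.38 in females and -0.97 in males, and the bars lengthen towards the serpins with few counts.

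Among the 59 serpins that were no members, 14 had a count in any library and 5 passed the filter. *Serpinc1* (antithrombin) was counted in all 12 libraries, at 1.75 ± 2.28 CPM in ARG1- and 2.35 ± 1.09 CPM in ARG1+ microglia, and did not pass (log2 fold change 0.45, SE 0.97, edgeR adjusted p = 0.803). The gene overlaps *Zbtb37* on the opposite strand over 2942 bases, so *Serpinc1* reads may be uncertain there without strand. *Serpind1* (heparin cofactor, an inhibitor of thrombin) had 96 counts in 5 of 6 ARG1+ libraries and 2 counts in 1 ARG1- library. The ratio of its counts per normalized library size was 50.6, with an exact 95% binomial interval of 13.6 to 424 for counting error. The gene lies wholly within *Pi4ka*, a lipid kinase gene on the opposite strand that stood at 34.2 ± 9.75 and 41.3 ± 12.5 CPM, so its reads are uncertain without strand. It passed the filter through ARG1+ libraries alone, so that its call (edgeR adjusted p = 0.0209) is not read as support for a difference. The call was lost without ARG1- female library 2 (adjusted p = 0.0533), ARG1+ female library 15 (0.0718) or ARG1+ male library 12 (0.0517).

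*Serpinf2* (antiplasmin), which lies 9030 bases from *Serpinf1* on the same strand, had 77 counts in 2 ARG1- and 87 counts in 3 ARG1+ libraries (log2 fold change 0.27, SE 1.86, edgeR adjusted p = 0.943). *Serpinb1b* and *Serpinb1c*, relatives of an elastase inhibitor gene, had 74 and 88 counts in ARG1- and 102 and 134 counts in ARG1+ microglia (edgeR adjusted p = 0.747 and 0.593). Of the 5 serpins, 1 passed, *Serpind1*, beside 15.9% of all genes tested. Their median log2 fold change of 2.11 is that of *Serpinb1b*, whose SE was 3.59 and whose mean CPM differed 1.65-fold. *Serpinb1b* and *Serpinb1c* were counted in 1 and 2 ARG1- and in 3 and 4 ARG1+ libraries. The filter asked for a minimum level in 3 libraries, so neither could have passed it through ARG1- libraries. Nothing is therefore read from this median.

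Of the 16 *Serpinb* genes in the cluster on chromosome 13, which spans 1161 kilobases at chr13:32842092-34002794, 7 had a count and 5 were tested. These were *Serpinb6a*, *Serpinb6b*, *Serpinb9*, *Serpinb1b* and *Serpinb1c*, with fitted log2 fold changes of 0.08, 1.35, 0.55, 2.11 and 2.40. None of the 5 passed the test. The positive values of *Serpinb1b* and *Serpinb1c* are not read, as neither could have passed the filter through ARG1- libraries.

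**Figure D4:**
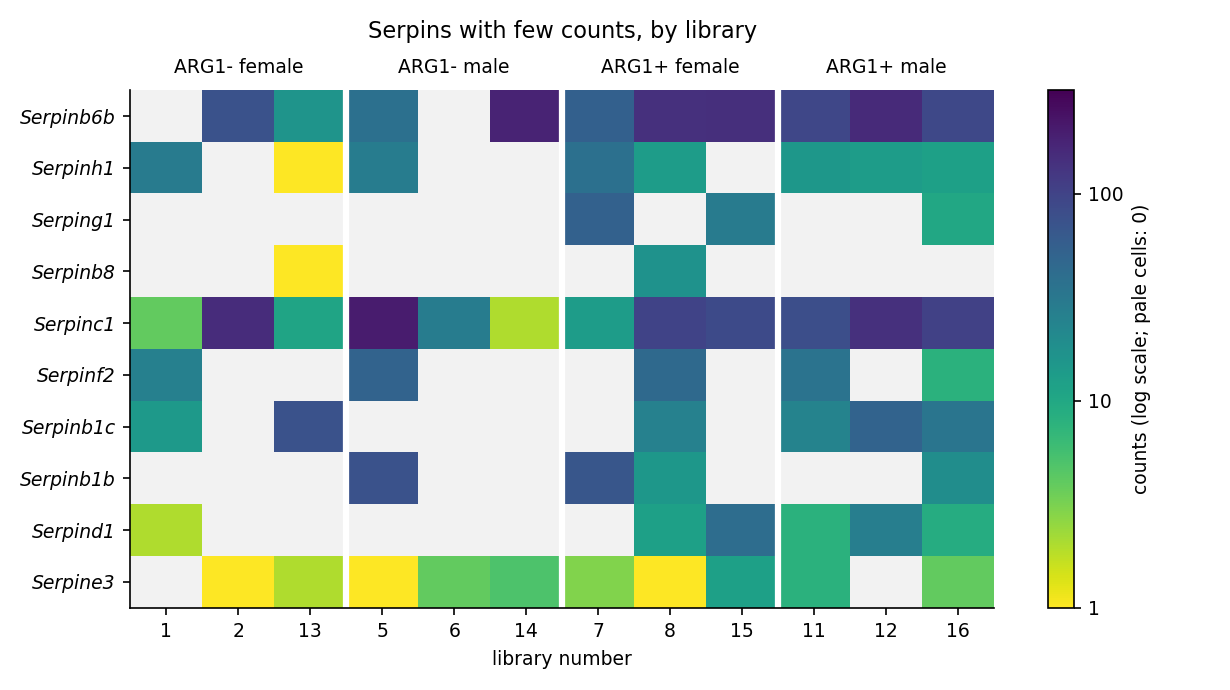
Counts of 10 serpins with few counts (rows) in each of the 12 libraries (columns, by group and library number); colour gives the count on a log scale, and pale cells are 0. *Serping1* has no count in ARG1- libraries, *Serpind1* has 2 counts there, and the others are found in both populations, most of them with gaps.

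Several proteases that these inhibitors act on were not found. Of a list of 42 genes, which holds serine proteases of several families and the coagulation cofactor *F3*, 14 were tested and 15 had 0 counts in all libraries, among them *Ctsg* (cathepsin G), *Gzmb* (granzyme B) and *C1s1*, the targets of *Serpinb6a*, *Serpinb9* and *Serping1*. A count of 0 allows a level of up to 0.102 CPM in the smallest library. *C1ra*, the further complement protease bound by the *Serping1* product, stood at 1.52 ± 1.23 and 2.25 ± 0.532 CPM in ARG1- and ARG1+ microglia (edgeR adjusted p = 0.769). *Plau* (urokinase) stood at 3.37 ± 2.26 and 1.43 ± 0.658 CPM (log2 fold change -1.20, SE 0.54, edgeR adjusted p = 0.166). *Plat* (tissue plasminogen activator), which was not tested, had 145 counts in ARG1- and 24 in ARG1+ libraries. Of these, 143 lay in ARG1- male library 5 and 22 in ARG1+ female library 8, so each total rests on 1 library.

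*Furin*, the target of *Serpinb8*, was abundant, at 80.2 ± 30.0 CPM in ARG1- and 123 ± 32.6 CPM in ARG1+ microglia. It did not pass (log2 fold change 0.63, SE 0.24, edgeR adjusted p = 0.0912), and passed without ARG1- female library 1 (log2 fold change 0.84, adjusted p = 0.0122), which at 138 CPM lay above the 54.2 to 77.6 CPM of the other ARG1- libraries. *Hpn*, a transmembrane protease, was the 1 gene of the list that passed, at 8.74 ± 2.40 and 17.3 ± 2.56 CPM without overlap (log2 fold change 0.99, SE 0.22, edgeR adjusted p = 0.0101), beside 6.44% of all genes tested. The count of proteases called rose to 2 without ARG1- female library 1 and to 3 without ARG1- male library 14, where *Htra3* and *Klk8* were called. The median log2 fold change of the 14 genes was 0.10. This list and those of receptors, collagen genes and other inhibitors below were chosen with earlier results of these data known. Their counts of calls and medians are therefore a description.

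Of the receptors and binding partners of serpins, 17 were tested, and 5 were higher and 1 lower in ARG1+ microglia, beside 6.44% and 9.42% of all genes tested. As the list was chosen with earlier results of these data known, nothing is read from these counts. *Lrp1*, the endocytic receptor that clears serpin and protease complexes, rose from 474 ± 128 to 966 ± 175 CPM without overlap (log2 fold change 1.02, SE 0.19, edgeR adjusted p = 0.00395). *Sdc3*, a heparan sulfate carrier, rose from 100 ± 26.1 to 189 ± 38.8 CPM without overlap (adjusted p = 0.00750), and *Plaur*, the urokinase receptor, from 6.61 ± 4.87 to 18.8 ± 5.73 CPM (log2 fold change 1.55, SE 0.37, edgeR adjusted p = 0.0139). These 3 calls held without any single library. *Sorl1*, a sorting receptor, rose from 15.4 ± 7.61 to 35.6 ± 10.7 CPM (adjusted p = 0.0414), but kept its call only without ARG1- female library 1 or 13 or ARG1+ male library 11 (0.0144 to 0.0958 over the 12 omissions). *F2r*, a thrombin receptor, differed by sex within ARG1- microglia, with 2.78 ± 0.694 CPM in females and 0.0112 ± 0.0193 CPM in males (SD, n = 3; edgeR adjusted p = 0.0145), and stood at 7.43 ± 3.78 and 3.39 ± 1.78 CPM in ARG1+ females and males. Its ARG1 effect passed in males (edgeR adjusted p = 0.00918) and not in females (0.241), and the difference of these effects did not pass (0.210). Over both sexes it passed (adjusted p = 0.0461), but of the 12 omissions only those of ARG1+ female library 8 or 15 kept the call (0.0338 to 0.102), and it was lost with no filter (0.0515) or no sex term (0.290).

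*Rpsa*, *Plxdc2* and *Pnpla2* encode receptors proposed for the *Serpinf1* product. *Rpsa*, which encodes the laminin receptor and ribosomal protein SA, fell from 103 ± 12.5 to 53.9 ± 12.1 CPM without overlap (log2 fold change -0.93, SE 0.16, edgeR adjusted p = 0.00258). *Plxdc2* was abundant at 894 ± 96.8 and 1094 ± 177 CPM and did not pass (log2 fold change 0.29, SE 0.11, edgeR adjusted p = 0.0951), although it passed without ARG1+ male library 11 (0.37, adjusted p = 0.0329). *Plxdc2* was also called by DESeq2's Wald test and by edgeR with at least 10 counts in every library. *Pnpla2*, a lipase, stood at 64.0 ± 4.45 and 72.5 ± 14.8 CPM (log2 fold change 0.17, SE 0.13, edgeR adjusted p = 0.411). The median log2 fold change of the 17 receptors and partners was 0.43.

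Of 29 collagens and collagen-modifying enzymes, which are clients of *Serpinh1* or act beside it, 20 were tested, with 2 higher and 1 lower, beside 6.44% and 9.42% of all genes tested, and a median log2 fold change of 0.08. *Col6a3* had the highest collagen level in ARG1+ microglia, at 13.2 ± 12 CPM with a range of 6.94 to 37.6 CPM, above the 0 to 5.29 CPM of ARG1- libraries. The value of 37.6 CPM came from an ARG1+ female library, while the ARG1+ median was 8.49 CPM and ARG1+ males reached at most 10.6 CPM. *Col6a3* did not pass (log2 fold change 2.39, SE 0.99, edgeR adjusted p = 0.130, or 0.0608 to 0.280 without single libraries). *Col1a2* had 80 counts in 6 of 6 ARG1+ libraries, of which 4 held more than 3, and 2 counts in ARG1- libraries, a ratio of 42.2 with an exact 95% binomial interval of 11.3 to 354 for counting error. It passed the filter through ARG1+ libraries alone, so that its call (edgeR adjusted p = 0.0170, or 0.0634 without ARG1+ male library 16) is not read as support for a difference. *Col1a1*, its partner chain, was at 0 in every library, as were the fibroblast markers *Dcn* and *Lum*. Among the enzymes, *Ppib*, a prolyl isomerase, fell from 254 ± 22.1 to 145 ± 17.7 CPM without overlap (log2 fold change -0.81, SE 0.10, edgeR adjusted p = 6.4e-04), and *P4hb* stood at 852 ± 146 and 761 ± 71.0 CPM (adjusted p = 0.394). *P3h2*, a prolyl hydroxylase, rose from 47.4 ± 14.4 to 84.6 ± 20.2 CPM (adjusted p = 0.0351), with its call kept without ARG1- female library 2, ARG1- male library 5 or ARG1+ male library 11 and lost without any other library (0.0102 to 0.0762).

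Protease inhibitors outside the serpin fold were called in 2 of 15 tested, both lower in ARG1+ microglia, beside 9.42% of all genes tested, with a median log2 fold change of 0.16. *Cst3* (cystatin C) inhibits lysosomal cysteine proteases; it ranged from 15546 to 18824 CPM in ARG1- and from 5982 to 10589 CPM in ARG1+ libraries, without overlap. *Pebp1*, a phosphatidylethanolamine-binding protein with inhibitor activity, fell from 33.6 ± 4.84 to 20.2 ± 2.92 CPM without overlap (log2 fold change -0.73, SE 0.15, edgeR adjusted p = 0.00652).

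**Figure D5:**
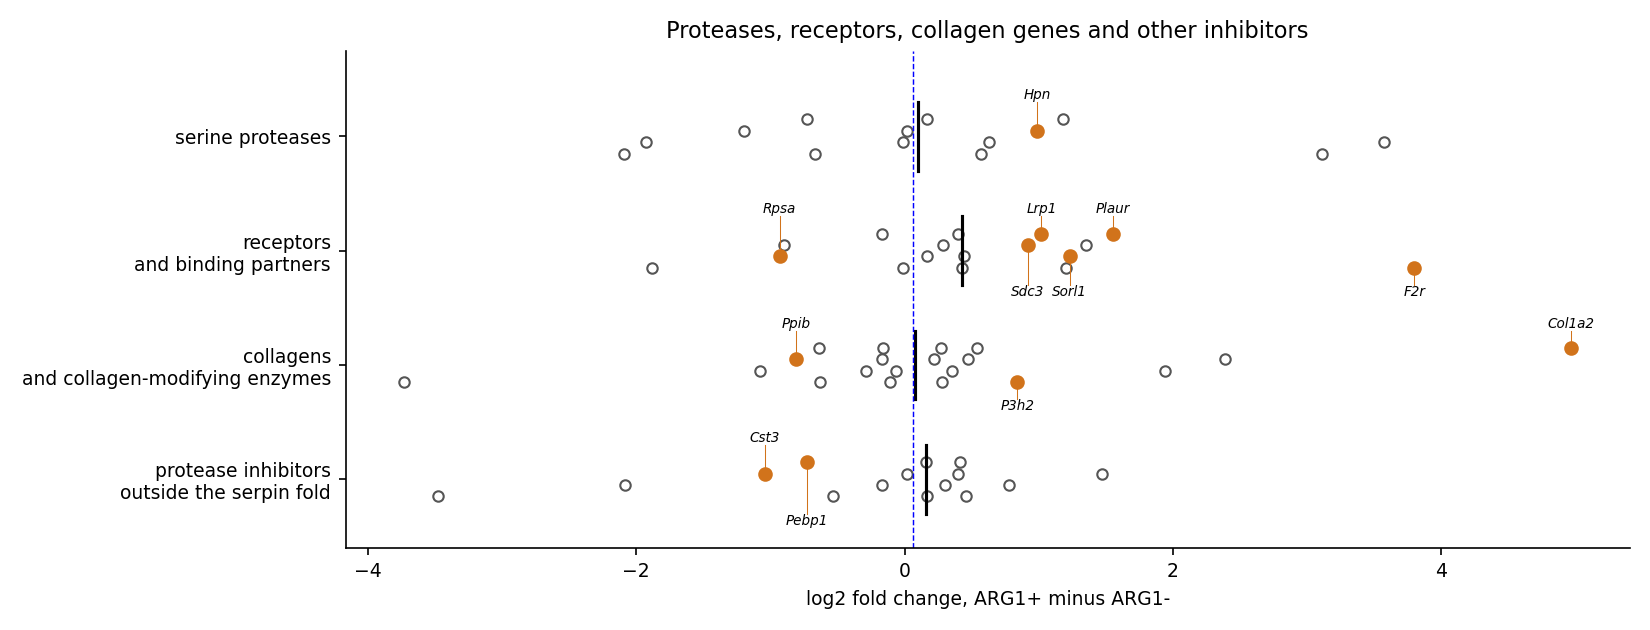
Log2 fold change between ARG1+ and ARG1- microglia (horizontal axis) for every tested gene of 4 lists (rows); filled orange points are named and passed an adjusted p of 0.05, open points did not, black bars are list medians and the dashed line is the median of all genes tested. The receptors hold 5 called genes on the right and *Rpsa* on the left, and *Cst3*, *Pebp1* and *Ppib* lie on the left.

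The genes whose log2 CPM followed *Serpinf1* most closely over the 12 libraries, among 8953 genes with a mean of at least 10 CPM, were *Gm19719*, *Alox5ap*, *Mrpl14*, *RPS10-NUDT3* and *Crybb1*, with Pearson correlations of 0.95 to 0.962. These values mostly reflect the distance between the populations, and within the 6 ARG1- libraries they were 0.70 to 0.92 and within the 6 ARG1+ libraries 0.26 to 0.85. *Alox5ap*, which encodes the activating protein of the leukotriene pathway, averaged 215 ± 29.6 and 101 ± 15.3 CPM. *Gm19719* is an antisense gene that overlaps *Alox5ap*, so its reads are uncertain without strand. *Crybb1*, a crystallin gene of developing microglia, averaged 633 ± 102 and 272 ± 49.6 CPM, and *Mrpl14*, a mitochondrial ribosomal protein gene, 14.9 ± 3.42 and 5.65 ± 1.89 CPM. *RPS10-NUDT3* overlaps *Rps10* and *Nudt3* on the same strand, so its counts are uncertain. *Serpine2* had a correlation of -0.410 with *Serpinf1* and *Serpinb6a* of -0.262.

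Some markers of other cell types that the sort could hold were, like *Serpinf1*, lower in ARG1+ libraries. The summed level of 6 astrocyte markers was 176 to 224 CPM in ARG1- and 129 to 150 CPM in ARG1+ libraries, without overlap; *Slc1a3* held 91.7% of it and was the 1 marker of 6 that passed, lower in ARG1+. The other 5, among them *Aqp4* and *Gfap*, summed to 8.03 to 26.1 CPM in ARG1- and 4.21 to 18.2 CPM in ARG1+ libraries. Of 9 microglial markers, 6 were lower and 1 higher in ARG1+ microglia. The summed levels of 6 monocyte markers overlapped, at 5.12 to 14.1 and 1.89 to 6.70 CPM in ARG1- and ARG1+ libraries. *Plac8* was lower in ARG1+ (6.75 ± 1.80 and 1.32 ± 0.778 CPM, edgeR adjusted p = 0.00466). Without *Plac8* the sums were 1.04 to 5.90 and 1.51 to 5.20 CPM. *Ccr2* (2.71 ± 1.94 and 2.72 ± 1.67 CPM) and *S100a4* (0.807 ± 0.389 and 0.786 ± 0.730 CPM) did not pass. The sums of 5 erythroid markers were 3.69 to 17.7 and 0 to 3.39 CPM, with *Hbb-bt* lower (edgeR adjusted p = 0.00866). Sums of 7 oligodendrocyte lineage markers overlapped, at 83.3 to 175 and 57.1 to 118 CPM, with 0 called. Sums for 8 border macrophage markers (106 to 141 and 112 to 237 CPM, 94.7% from *Mrc1*), 6 neuron markers (4.24 to 13.1 and 1.81 to 7.95 CPM) and 6 neutrophil markers (at most 5.15 CPM) overlapped between the populations, and those of 6 T and NK cell markers were 0 in ARG1- and at most 1.40 CPM in ARG1+ libraries. Of these last, *Klrb1c* was called higher, at a mean of 0.505 CPM in ARG1+ libraries. It passed the filter through ARG1+ libraries alone, so its call is not read as support for a difference. Of 7 fibroblast and mural markers, 4 were at 0 in all libraries and the sum was at most 3.37 CPM. Of 6 endothelial markers, none passed; their sum was 29.8 to 58.1 and 44.9 to 83.6 CPM, with 90.1% from *Pecam1* and *Cldn5* at 0. The part of these cells and markers in the *Serpinf1* result was not tested.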

How the data were processed

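RNA-seq counts per gene of 12 libraries were used. According to the study's methods and the submitters' processing notes, the authors amplified cDNA with the SMART-Seq kit, which keeps neither strand nor molecular identifiers, made Nextera XT libraries, sequenced single reads of 75 bases, demultiplexed them with bcl2fastq 2.20.0, aligned them to GRCm38 with STAR 2.6.1d and counted them with featureCounts 1.5.1; the annotation release and the counting options are not given in the sources used here. The deposited values are raw counts without normalization, for 55487 genes, and 0 columns were left unused. Gene symbols, positions and exon lengths came from GENCODE M21, which matched 55227 identifiers; the other 260 held 0.0333% of counts. Start regions came from RefSeq (GRCm38.p6).

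Counts were analysed in R 4.3.3 and edgeR 4.0.16. The functions filterByExpr (by the 4 groups) and calcNormFactors (TMM) prepared the counts, glmQLFit and glmQLFTest gave the quasi-likelihood test, and p-values were adjusted over 16908 genes by Benjamini and Hochberg, with a limit of 0.05. ARG1 status was fitted with sex as a second term; sex contrasts and the interaction came from a fit of the 4 group means. Each SE is the log2 fold change divided by the root of F. CPM use TMM library sizes and were divided by exon length in kilobases where stated. The alternatives were DESeq2 1.42.0 size factors, DESeq2's Wald test, no filter, at least 10 counts in every library, no sex term, a term for the libraries numbered 13 to 16, and each library left out in turn; no filter, no sex term and the 13 to 16 term were run for the ARG1 contrast only. The edgeR test was checked on simulated data. Replicate libraries differed by more than sampling noise, and their p-values measure the spread between libraries, fitted as independent although both populations may come from shared pools of pups. Intervals and detection limits (3 counts) cover counting error only.

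The members, gene lists and marker lists were chosen with earlier results of these data known. Genes named were the 8 members, the other serpins tested, up to 6 genes per list with an adjusted p under 0.05, fixed partners of the members, and the 5 genes most like Serpinf1; overlapping genes, markers, *Col6a3* and genes called only under an alternative were named after their values were seen. A further gene is not reported here.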

Additional observations from a re-analysis of the deposited data

Results flagged for a closer look

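Each value was compared with the other 5 libraries of its population, and a library was listed where its gap to the nearest, as a share of the whole range, exceeded Dixon's critical value for 6 samples. Of 75 sets of 6 libraries, 13 had such a library, where chance gives about 3.75; most of them are genes with few counts, in which 0 in the other libraries makes the gap. Among the members, *Serpinb6b* reached 5.27 CPM in ARG1- male library 14 against at most 1.85 CPM in the other ARG1- libraries, *Serpinh1* reached 1.21 CPM in ARG1+ female library 7 against at most 0.443, and *Serpinb8* was found at 0.0170 CPM in ARG1- female library 13 and at 0.579 CPM in ARG1+ female library 8, with 0 in all others.

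Among the other serpins, *Serpinb1c* reached 1.26 CPM in ARG1- female library 13 against at most 0.420, and *Serpinb1b* 2.16 CPM in ARG1+ female library 7 against at most 0.563 and 1.96 CPM in ARG1- male library 5 against 0. *Serpind1* stood at 0.0600 CPM in ARG1- female library 1, where the other ARG1- libraries were at 0. *Plat* reached 3.78 CPM in ARG1- male library 5 and 0.749 CPM in ARG1+ female library 8, against at most 0.0593 CPM in the others of either population. Of the genes with many counts, *Furin* reached 138 CPM in ARG1- female library 1 against 54.2 to 77.6 CPM, *Plaur* 16.2 CPM in ARG1- male library 6 against 3.68 to 7.04 CPM, and *Crybb1* 368 CPM in ARG1+ male library 11 against 229 to 277 CPM. *Col6a3*, which reached 37.6 CPM in an ARG1+ female library, is not among the sets listed here. *Serpinf1*, *Serpine2*, *Serpinb6a* and *Serpinb9* had no such library. No library total passed the limit, although ARG1- female library 13 held 60625170 counts against at most 42095067 in the other ARG1- libraries.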

How the results depend on the processing

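The ARG1 contrast called 1 member under each alternative; as the members were chosen on it, nothing is read from this. DESeq2's Wald test called 4101 of 29671 genes fitted in the ARG1 contrast, in place of 2682 of 16908. It called 3 serine proteases in place of 1, 5 inhibitors outside the serpin fold in place of 2, and 1 member in the sex contrast of ARG1- microglia in place of 0. It tests more genes. The share of calls higher in ARG1+ was 40.6% in edgeR with TMM and 52.1% in DESeq2. With at least 10 counts in every library, 2 serine proteases were called in place of 1, *Furin* being added. That filter left no other serpin to test. Among receptors and binding partners, that filter and DESeq2's Wald test each added *Plxdc1*, *Plxdc2* and *Sdc4*, and *F2r* was lost under that filter.

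Without single libraries, the ARG1 contrast called 1753 to 2669 genes, fewest without ARG1+ male library 12, and 0 to 1 other serpins, 1 to 3 serine proteases and 1 to 3 collagens and collagen-modifying enzymes, fewest without ARG1+ male library 16. Receptors and binding partners gave 4 to 6 calls. With a term for libraries numbered 13 to 16, *Sorl1* (adjusted p = 0.0526) and *F2r* (0.0551) lost their calls. No paired analysis was possible because no replicate number occurs in more than 1 group, so that shared pools could not be matched. Detection of the serpins below about 1 CPM was uneven between libraries; the cause was not tested.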
